A study of Mus musculus with 16 samples.

Results

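The genes described here are long non-coding RNAs (lncRNAs) that Ensembl lists under a provisional name, either Gm with a number, a gene model awaiting a name, or a RIKEN clone identifier ending in Rik. They were taken from a deposited lncRNA count table of epididymal white fat in 16 mouse libraries. Transcripts sharing a name were summed, and a name was kept when its mean was 0.5 CPM (counts scaled to a common library size) or more over 15 libraries. The library called resveratrol 4, whose Crisp1 level exceeded 1000 CPM, was left out of that mean only. Of 7830 provisional names among 76125 lncRNA features, 2265 met the rule, 1800 with Gm names and 465 with Rik names. Just inside the threshold were Gm37482, Gm45843 and 4933412A08Rik with means of 0.500031, 0.500937 and 0.50116 CPM, and just outside it Gm10416 at 0.499663 CPM.

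All groups were male C57BL/6 mice, bought at 6 weeks of age and about 22 g, with 4 libraries per group and no genetic change stated. The groups were normal diet, high-fat diet (HFD, 60% fat, fed for 8 weeks before treatment), HFD with metformin for 6 weeks, and HFD with resveratrol (spelled reveratrol in the labels) for 6 weeks. Titles name epididymal fat, whereas the extraction text speaks of retinas and the treatment text of skeletal muscle. One HFD and one metformin library carried a column code found in no title, and the names HFD unmatched and metformin unmatched stand for them. Nothing in the labels says that the libraries came from separate animals, so the p-values rest on library-to-library spread, which may be technical.

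A lncRNA is a transcript with little or no coding capacity, and its known roles range from shaping chromatin beside its own gene to scaffolding proteins or binding microRNAs elsewhere. Many lncRNAs lie inside introns or start beside a protein-coding gene on the opposite strand. In fat, some lncRNAs are known to act in adipocyte differentiation and thermogenesis, but most provisional names have no assigned role. Metformin is an antidiabetic biguanide and resveratrol a plant polyphenol.

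Library depth was 13350585 to 20531032 mRNA counts and 3550737 to 5828645 lncRNA counts. The summed level of 12 adipocyte genes was 21100 to 50900 CPM in 15 libraries and 1270 CPM in resveratrol 4, where epididymis principal cell genes reached 21500 CPM against at most 47.8 CPM elsewhere. Transcripts of ciliated epithelium were raised in 5 further libraries (normal diet 2, metformin 2, metformin 4, metformin unmatched and resveratrol 2), at 450 to 1170 CPM against at most 32.4 CPM in the other 10. The sum of 16 macrophage genes was 6230 to 7440 CPM in HFD 1 to 3, 2410 CPM in HFD unmatched and 463 to 2950 CPM in the libraries of the other groups. In bulk tissue, fewer cells of a type and less RNA per cell cannot be told apart.

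Promoter windows from RefSeq (build GRCm38.p6, 250 bases before to 50 after an annotated start) are shown for names whose place beside an mRNA gene, or whose level, the results turn on. The first window holds both starts of a divergent pair. 2010016I18Rik starts on the minus strand of chromosome 3 at 106485913, and a start of Dennd2d lies on the opposite strand at 106486040, 127 bases away. The capitals in its window, chr3:106485864-106486163 (minus strand), mark the bases from one start to the other, and none of 6 motifs searched was found in it.
2010016I18Rik: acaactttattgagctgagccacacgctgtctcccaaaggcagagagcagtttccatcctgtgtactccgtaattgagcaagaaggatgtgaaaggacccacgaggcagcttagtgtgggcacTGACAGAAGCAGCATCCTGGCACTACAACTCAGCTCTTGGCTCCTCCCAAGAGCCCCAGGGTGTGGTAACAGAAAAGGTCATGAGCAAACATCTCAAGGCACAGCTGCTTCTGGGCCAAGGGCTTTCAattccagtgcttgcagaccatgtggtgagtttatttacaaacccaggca
The next 2 windows belong to names that were lower under HFD and carry GGGCGG, the GC box bound by Sp1, shown in capitals on either strand, and in Gm14963 also TATAAA. They are Gm14963 at chr19:6276529-6276828 (minus strand) and 2310015A10Rik at chr12:80132795-80133094 (minus strand). Their GC contents were 68.3% and 62.3%, against a median of 52.7% over all 32851 windows and 54.0% over the member windows. The window of 2010016I18Rik, also lower under HFD, had 51.3% and no motif. Whether promoter content goes with direction was not tested.
Gm14963: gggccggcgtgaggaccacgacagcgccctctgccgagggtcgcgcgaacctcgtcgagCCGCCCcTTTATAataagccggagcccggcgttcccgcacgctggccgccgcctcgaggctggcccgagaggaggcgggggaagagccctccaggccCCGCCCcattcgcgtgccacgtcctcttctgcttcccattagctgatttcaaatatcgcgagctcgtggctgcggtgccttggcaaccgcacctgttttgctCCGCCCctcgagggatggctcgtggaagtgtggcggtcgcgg
2310015A10Rik: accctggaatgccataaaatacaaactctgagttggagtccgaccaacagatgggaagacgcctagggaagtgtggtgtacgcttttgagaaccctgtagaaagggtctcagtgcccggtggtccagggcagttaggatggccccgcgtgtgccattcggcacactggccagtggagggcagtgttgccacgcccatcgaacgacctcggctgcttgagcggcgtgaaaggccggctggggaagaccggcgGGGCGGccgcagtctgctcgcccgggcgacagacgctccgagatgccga
The last 3 windows belong to names that were higher under HFD and hold none of the motifs, hence no capitals. They are 1700047G03Rik at chr15:11966812-11967111 (plus strand), Gm5627 at chr9:102739398-102739697 (plus strand) and Gm11747 at chr11:118454946-118455245 (minus strand), with GC contents of 51.7%, 52.3% and 42.7%.
1700047G03Rik: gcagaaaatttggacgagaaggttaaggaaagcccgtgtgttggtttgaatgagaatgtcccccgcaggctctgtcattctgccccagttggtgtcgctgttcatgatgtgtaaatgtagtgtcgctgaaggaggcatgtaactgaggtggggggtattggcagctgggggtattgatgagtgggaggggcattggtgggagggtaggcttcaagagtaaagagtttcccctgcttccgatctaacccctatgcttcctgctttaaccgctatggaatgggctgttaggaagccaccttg
Gm5627: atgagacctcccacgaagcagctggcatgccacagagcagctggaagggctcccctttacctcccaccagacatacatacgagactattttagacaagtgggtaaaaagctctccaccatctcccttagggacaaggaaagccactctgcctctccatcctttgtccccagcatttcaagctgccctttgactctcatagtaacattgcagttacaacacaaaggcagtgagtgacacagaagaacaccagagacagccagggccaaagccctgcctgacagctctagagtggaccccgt
Gm11747: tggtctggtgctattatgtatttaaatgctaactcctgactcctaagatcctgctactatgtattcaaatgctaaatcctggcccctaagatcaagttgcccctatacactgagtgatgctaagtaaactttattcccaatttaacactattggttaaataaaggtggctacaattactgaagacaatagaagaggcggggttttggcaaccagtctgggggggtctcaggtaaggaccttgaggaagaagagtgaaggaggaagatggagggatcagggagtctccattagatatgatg

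The motifs searched on both strands were the E-box CACGTG, the TATA box TATAAA, the GC box GGGCGG, the AP-1 site TGACTCA, the ETS site CCGGAAG and DR1, a direct repeat bound by nuclear receptors. A window was found for 417 members, 503 windows in all. GGGCGG was in 40.8% of them and in 35.7% of all windows, CCGGAAG in 12.9% and 8.86%, TATAAA in 11.7% and 13.6%, CACGTG in 6.96% and 7.15%, and TGACTCA in 3.38% and 5.2%. DR1 was in 0 member windows and in 13 of all windows. A match is a run of letters only.

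Members were mostly low in abundance. The median of their 15-library means was 1.99 CPM, with quartiles of 0.955 and 4.79 CPM. A mean of 10 CPM or more was reached by 246, and 100 CPM or more by 6. These levels chose the members and are a description.

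The highest levels per kilobase of transcript came from ribosomal, small RNA and pseudogene rows. Gm26917 (chr17:39843013-39846341) led with a mean of 27100 CPM, equal to 8160 CPM per kb, and ranged from 15100 CPM in resveratrol 4 to 33900 CPM in HFD 2. Beside it Gm42418 (chr17:39846958-39848788), which RefSeq names Rn18s-rs5, a sequence related to 18S ribosomal RNA, averaged 5120 CPM per kb. Both rows together held 62.7% to 82.8% of all member counts in a library. Next came Gm24447 at 526 CPM per kb, Gm1821 (the ubiquitin pseudogene Ubb-ps) at 303 CPM per kb, and Gm25395 and Gm22009, guide RNAs inside Atg16l1 and Kpna4, at 211 and 203 CPM per kb. Gm7665, Gm14586, Gm8430 (Rps27a-ps3) and Gm10177, pseudogenes in RefSeq, followed at 173, 147, 126 and 80.4 CPM per kb. None of these 10 passed the test relative to mRNA in any of the 3 comparisons. Scaled to the lncRNA table, Gm7665 rose under HFD by 1.26 (adjusted p = 0.0433, edgeR). Reads of ribosomal and pseudogene rows may be shared with near-identical copies, so their levels are uncertain.

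RefSeq matched 668 of the 2265 names, 524 as lncRNA, 107 as pseudogenes, 31 as protein-coding, and the remaining matches as guide RNA, snoRNA or miscellaneous RNA. Several have since received names. Oip5os1 (1700020I14Rik, known as Cyrano), a conserved lncRNA that directs decay of a microRNA, varied little, from 170 to 209 CPM over the 16 libraries. Norad (2900097C17Rik), which binds Pumilio proteins, lay between 307 and 401 CPM in 15 libraries and at 482 CPM in resveratrol 4. Chaserr (1810026B05Rik), which is known to restrain the chromatin remodeller gene Chd2 beside it, averaged 68.1 ± 22.2 CPM (SD, n = 4) on normal diet and 40.8 ± 11.4 under HFD, a log2 difference of -0.74 (SE 0.264, adjusted p = 0.0774). Mir100hg (3110039I08Rik), host of microRNA genes of the miR-100 cluster, was at 48.7, 74.8, 45.2 and 44.2 CPM on normal diet and 29.9, 32.3, 23.2 and 31.6 CPM under HFD. It fell by 0.86 on the log2 scale (adjusted p = 0.0174), but its difference was -0.41 (adjusted p = 0.284) when scaled to the lncRNA table. Morrbid (Gm14005), known to hold down Bcl2l11 in myeloid cells, averaged 1.47 ± 0.261 CPM on normal diet and 1.9 ± 0.444 under HFD (log2 difference 0.37, adjusted p = 0.614), and Bcl2l11 itself differed by 0.12 (adjusted p = 0.882). Cerox1 (2810468N07Rik) and Prdm16os (Gm13111) did not pass in any comparison. These 7 were chosen after their values were seen.

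How members moved with diet depended on what they were scaled to. Relative to mRNA, the normalisation used as the main one, 77.5% of the 2218 members that passed the filter on low counts were lower in HFD than in normal diet, with a median log2 fold change of -0.45. The median over all 22774 lncRNA features tested was -0.47, and over mRNA genes -0.05. Relative to the lncRNA table itself, 50.1% of members were lower, with a median of -0.0012. Per library, the members' median deviation from their 15-library mean was 0.13 to 0.25 on the log2 scale on normal diet, -0.42 to -0.13 under HFD, and -0.01 to 0.09 with either drug. All 4 HFD libraries thus lay below the other 12. With the 2 ribosomal rows set aside, members made up 1.13% to 1.29% of mRNA counts on normal diet, 0.794% to 0.956% under HFD, 1.05% to 1.24% with metformin and 1.04% to 1.37% with resveratrol.

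**Figure D1:**
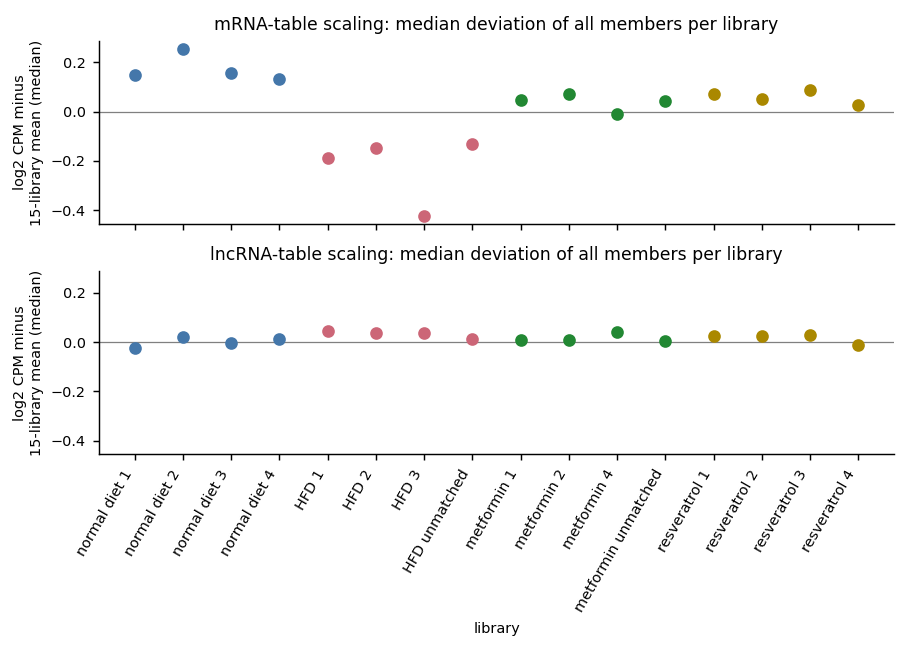
Median over all members of log2(CPM + 0.1) minus each member's mean over 15 libraries (y axis) for each of the 16 libraries (x axis), by group. With mRNA-table scaling the 4 HFD libraries sit between -0.42 and -0.13, below the other 12, and with lncRNA-table scaling all medians lie between -0.02 and 0.04.

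Relative to mRNA, 27 members rose and 270 fell under HFD. Sizes given below after rose, fell or differed by are log2 fold changes. The share that fell, 12.2%, equalled that over all lncRNA features (12.2%), and 1.22% rose against 0.953% of all features. Scaled to the lncRNA table, 46 rose (1.62% of all features did) and 31 fell (1.1% of all features did). Of the 27 that rose by mRNA scaling 24 also rose by lncRNA scaling, and all 31 that fell by lncRNA scaling were among the 270. The HFD and normal diet libraries did not overlap in CPM for 705 of the 2218 members, a share of 31.8% against 29.6% of all features, and for 282 of the 297 that passed. Without resveratrol 4, which enters the shared estimate of spread, 67 rose and 526 fell, against 2.35% and 20.9% of all features. By lncRNA scaling without it 162 rose and 95 fell, against 5.39% and 3.73%.

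Among the increases was 1700047G03Rik (chr15:11964276-11970086, plus strand). It lies 11252 bases from Sub1, a gene for a transcription coactivator on the opposite strand. It was at 1.86, 1.93, 1.92 and 2.57 CPM on normal diet and 31.1, 24.9, 26.1 and 22.6 CPM under HFD. The groups were far apart, and its log2 fold change was 3.66 (SE 0.56, adjusted p = 0.00287), or 4.11 by lncRNA scaling (adjusted p = 0.00769). Metformin libraries held 13.3, 5.11, 23.3 and 13.3 CPM and resveratrol libraries 11.2, 13.3, 5.94 and 1.44 CPM, most of them between the diets. Against HFD these differences did not pass, at -0.93 (adjusted p = 0.314) and -1.72 (adjusted p = 0.0713). Gm24074, a short row inside its span, was at 0.0774 to 0.234 CPM on normal diet and 0.758 to 1.47 CPM under HFD (log2 fold change 2.71, adjusted p = 0.00606), and its reads may be the same. Sub1 itself rose by 0.47 (adjusted p = 0.0421).

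Gm5627 (chr9:102739648-102756685, plus strand), 6229 bases from Amotl2 on the same strand, was at 1.7, 0.416, 1.28 and 1.17 CPM on normal diet and at 15.5, 13.9, 9.32 and 13.6 CPM under HFD. It rose by 3.53 (SE 0.627, adjusted p = 0.00477), or by 3.95 with lncRNA scaling (adjusted p = 0.0102). Amotl2, a junction protein of the angiomotin family, differed by -0.20 (adjusted p = 0.793). Metformin libraries (2.14 to 7.99 CPM) and resveratrol libraries (0.411 to 5.45 CPM) all lay below the HFD libraries, with adjusted p = 0.227 and 0.0651.

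Gm42047 (chr8:121833247-121841178) rose from 9.42 ± 1.1 CPM (SD, n = 4) to 35.3 ± 16.6, with log2 fold change 1.91 and adjusted p = 0.00705. Its neighbour Klhdc4, 3677 bases away, differed by 0.29 (adjusted p = 0.166). 9030619P08Rik (chr15:75427606-75431829), a transcribed pseudogene in RefSeq, rose from 0.15 ± 0.105 to 2.4 ± 1.31 CPM (log2 fold change 3.95, SE 0.97, adjusted p = 0.0184), and its normal diet level rests on few counts. D730045B01Rik (chr5:151367720-151428210), 99.9% covered by the gene model Gm42906, rose by 2.74 (adjusted p = 0.0418) and Gm42906 by 2.88 (adjusted p = 0.00978). Without HFD 3 the adjusted p of 9030619P08Rik was 0.0624, and without HFD 1 that of D730045B01Rik was 0.0814. By lncRNA scaling D730045B01Rik did not pass (adjusted p = 0.0607).

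Other increases lay inside genes. Gm37469 (chr1:165848155-165849044) lies within Cd247, which encodes the zeta chain of the T cell receptor, and rose from 0.137 ± 0.077 to 1.02 ± 0.159 CPM (log2 fold change 2.85, adjusted p = 0.04). Cd247 differed by 0.11 (adjusted p = 0.902), and the sum of 10 T cell genes was 12.2 to 20.0 CPM on normal diet and 12.7 to 28.9 CPM under HFD. Gm47493 (chr13:12047342-12052055) lies within Ryr2, a calcium release channel gene, and was at 3.08, 1.27, 2.55 and 0.429 CPM under HFD against 0.155 to 0.373 CPM on normal diet (2.72, adjusted p = 0.0449). Ryr2 was at 32.2, 30.3, 33.6 and 12.3 CPM under HFD against 1.28 to 8.64 CPM on normal diet, a difference of 2.47 that did not pass (adjusted p = 0.0664). For Gm47493 and Ryr2, HFD unmatched was the lowest HFD library, as it was for macrophage transcripts. With metformin Gm47493 was at 0.208, 0.891, 1.99 and 1.15 CPM and Ryr2 at 2.77, 6.65, 27.4 and 15.5 CPM. With resveratrol they were at 0.182, 1.39, 0.0639 and 0.342 CPM and at 3.15, 12.5, 1.85 and 8.55 CPM. Macrophage sums were 1330 to 2050 CPM with metformin and 463 to 1870 CPM with resveratrol. The part of macrophage content in the HFD differences was not tested. By lncRNA scaling Gm37469 and Gm47493 had adjusted p = 0.0541 and 0.0627.

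**Figure D2:**
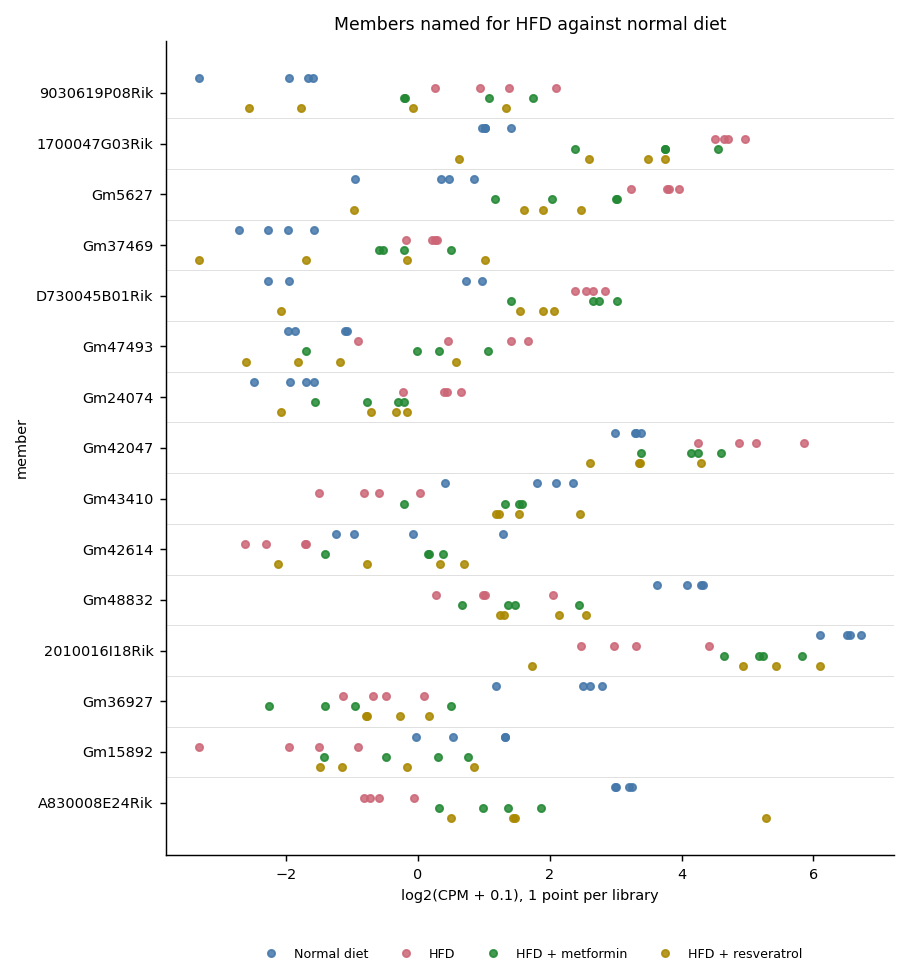
Level of 15 members named for HFD against normal diet, as log2(CPM + 0.1), with 1 point per library coloured by group. HFD and normal diet points do not overlap in any of the 15, by the rule that chose them, with HFD higher in 8 and lower in 7.

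Among decreases, 2010016I18Rik (chr3:106481982-106485913), whose promoter is printed above, had the highest level. Of its span, 89.2% is covered by Dennd2d, a gene for an exchange factor of Rab GTPases. It was at 91.2, 68.7, 106 and 94.1 CPM on normal diet and at 7.73, 9.79, 5.47 and 21.3 CPM under HFD. The groups were well separated, and it fell by 3.02 (SE 0.659, adjusted p = 0.0106), or by 2.62 with lncRNA scaling (adjusted p = 0.0432). Dennd2d was at 45.3, 36.1, 44.9 and 57.5 CPM on normal diet and 8.89, 9.43, 7.08 and 15.3 CPM under HFD, and fell by 2.18 (SE 0.331, adjusted p = 0.00401). With metformin the lncRNA was at 24.9 to 56.6 CPM and Dennd2d at 20.2 to 38.5 CPM, all above the HFD libraries. Against HFD, Dennd2d rose by 1.48 with metformin (adjusted p = 0.0494), while 2010016I18Rik differed by 1.81 (adjusted p = 0.148). With resveratrol the lncRNA was at 43, 30.4, 68.9 and 3.22 CPM and Dennd2d at 28.7, 21.9, 29.1 and 10.1 CPM, both lowest in resveratrol 4. Whether the counting used strand is not known here, and without strand the reads of overlapping genes cannot be told apart.

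A830008E24Rik (chr1:154037597-154117951) had the largest log2 decrease of the members named. It stood at 9.13, 7.91, 9.39 and 7.83 CPM on normal diet and 0.505, 0.561, 0.469 and 0.858 CPM under HFD, and fell by 3.83 (SE 0.911, adjusted p = 0.016), or by 3.4 with lncRNA scaling, which did not pass (adjusted p = 0.0586). Without HFD 1 or HFD 3 its adjusted p was 0.0521 or 0.0612. The nearest tested mRNA gene lies 83235 bases away. Gm48832 (chr9:85332352-85348065) and Gm36927 inside its span, 5003 and 15162 bases from Fam46a, fell by 2.94 (adjusted p = 0.00289) and 3.05 (adjusted p = 0.00629). Gm48832 was at 19.6, 16.8, 19.9 and 12.2 CPM on normal diet and 1.11, 1.89, 1.93 and 4.05 CPM under HFD, and at 1.48 to 5.75 CPM in the 8 libraries of the drug groups. Fam46a, which encodes a nucleotidyltransferase, differed by -0.47 (adjusted p = 0.0818).

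Gm43410 and Gm42614 lie wholly inside metabolic genes. Gm43410 (chr3:118868244-118870477) is within Dpyd, the rate-limiting enzyme of pyrimidine breakdown, and was at 3.4, 5, 4.16 and 1.23 CPM on normal diet and 0.253, 0.561, 0.469 and 0.919 CPM under HFD. It fell by 2.65 (SE 0.532, adjusted p = 0.00744) and Dpyd by 1.45 (adjusted p = 0.00428). Gm42614 (chr5:51482752-51484305) is within Ppargc1a, which encodes PGC-1alpha, a coactivator of mitochondrial biogenesis, and was at 0.851, 2.34, 0.32 and 0.409 CPM against 0.101, 0.204, 0.208 and 0.0613 CPM. It fell by 2.70 (adjusted p = 0.0398), and Ppargc1a by 1.76 (adjusted p = 0.0141), from 14.6 ± 5.73 to 4.3 ± 1.14 CPM. With metformin Ppargc1a rose by 1.72 (adjusted p = 0.0494), while Gm42614 differed by 2.54 (adjusted p = 0.129). Ppargc1a was at 7.82 CPM in metformin 1, above the HFD libraries at 2.8 to 5.41 CPM. It was at 15.3, 17.1 and 16.3 CPM in metformin 2, metformin 4 and metformin unmatched, all rich in ciliated epithelium transcripts. Gm42614 was at 0.277, 1.01, 1.02 and 1.2 CPM in that order. Within their groups both were highest in normal diet 2 and resveratrol 2, also rich in these transcripts. The part of this content in the rise of Ppargc1a was not tested. Without normal diet 2, the highest library, the HFD difference of Gm42614 was -1.78 (adjusted p = 0.165). By lncRNA scaling it did not pass either (adjusted p = 0.162).

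Gm15892 (chr11:88059066-88067476), 802 bases from the zinc finger gene Vezf1, fell from 1.76 ± 0.767 to 0.209 ± 0.18 CPM (by 3.05, adjusted p = 0.0232), and Vezf1 by 0.58 (adjusted p = 0.00941). By lncRNA scaling Gm15892 did not pass (adjusted p = 0.0906).

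Some genes held several members that fell. Of 229 mRNA genes overlapping or within 5 kb of a member that passed, 30 had 2 or more and 9 had 3 or more. These 9, chosen by that count after the values were seen, were Meis1, Rabgap1l, Nedd4, Tcf12, Rc3h1, Gphn, Magi3, Chd2 and the microRNA host gene Mir99ahg. Every one of their members that passed was lower under HFD relative to mRNA. As 270 of all 297 members that passed fell, that direction is not particular to these genes. The numbers of genes with several members were not set against those for all lncRNA features. Members of 1 gene may count reads of the same primary transcript and are not independent.

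In Meis1, a homeobox transcription factor gene, all 3 members fell. Gm37818 (chr11:18884623-18887791) was at 7.04, 9.21, 8.48 and 4.26 CPM on normal diet and 1.77, 1.89, 2.39 and 3.25 CPM under HFD, and fell by 1.64 (adjusted p = 0.0053). 2900018N21Rik fell by 1.86 (adjusted p = 0.0045) and 2610001A08Rik by 1.60 (adjusted p = 0.00587). Meis1 mRNA fell from 41.2 ± 1.87 to 18.1 ± 4.55 CPM, by 1.18 (adjusted p = 0.00354). With lncRNA scaling the differences of Gm37818, 2900018N21Rik and 2610001A08Rik were -1.18, -1.41 and -1.16, with adjusted p = 0.0457, 0.0315 and 0.0503.

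In Gphn, the gene for gephyrin, which anchors inhibitory receptors and takes part in molybdenum cofactor synthesis, all 3 members fell. Gm48225 (chr12:78261293-78266375) was at 28.4, 28.7, 30.5 and 25.1 CPM on normal diet and 13.4, 11.4, 9.32 and 14 CPM under HFD. It fell by 1.23 (SE 0.14, adjusted p = 0.00113), or by 0.78 with lncRNA scaling (adjusted p = 0.00825), and Gphn mRNA fell by 0.81 (adjusted p = 0.0105). By lncRNA scaling the other two members, Gm48230 and Gm48231, did not pass (adjusted p = 0.281 and 0.135). The 3 members within Chd2 that fell did so by 0.75 to 0.77, and Chd2 by 0.68 (adjusted p = 0.00822). By lncRNA scaling these 3 had adjusted p = 0.22, 0.449 and 0.3. In Rabgap1l 3 of 9 members fell and the gene fell by 0.37 (adjusted p = 0.0444). By lncRNA scaling these 3, Gm37529, Gm37873 and Gm38329, did not pass (adjusted p = 0.536, 0.31 and 0.138).

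Elsewhere the host gene did not pass. In Magi3, a scaffold protein gene, 6 of 11 members fell, by 0.56 to 0.94, while Magi3 differed by -0.10 (adjusted p = 0.637). In Tcf12, a helix-loop-helix transcription factor gene, 4 of 8 fell and Tcf12 differed by -0.20 (adjusted p = 0.443). In Rc3h1, which encodes the RNA-binding protein Roquin, all 3 fell and the gene differed by -0.13 (adjusted p = 0.638). In Nedd4, a ubiquitin ligase gene, all 3 fell, by 0.91 to 1.07, and Nedd4 differed by -0.72 (adjusted p = 0.16). In Mir99ahg 3 of 9 fell and the host differed by -0.74 (adjusted p = 0.3). That host was low, with means of 0.905 CPM on normal diet and 0.542 CPM under HFD, which limits this comparison. Of the members in these 5 genes, Gm37694 in Mir99ahg alone passed with lncRNA scaling (adjusted p = 0.0188).

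Host and member went in opposite directions in 2 genes. Gm42658 and Gm42659 inside Capza1, a subunit gene of the actin capping protein, fell by 0.68 (adjusted p = 0.0205) and 0.57 (adjusted p = 0.0128), while Capza1 rose from 62.6 ± 6.44 to 93.3 ± 14.1 CPM (by 0.57, adjusted p = 0.0141). Gm28151 inside Slc39a10, a zinc importer gene, fell by 0.74 (adjusted p = 0.0301), while Slc39a10 rose by 0.65 (adjusted p = 0.026). By lncRNA scaling Gm42658, Gm42659 and Gm28151 differed by -0.24, -0.12 and -0.27, and none passed.

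Position was compared over all members. An mRNA gene overlapped 1728 members, of which 1314 lay wholly inside it, 282 had one within 5 kb and 255 were farther. Across overlapping members the log2 fold change under HFD correlated with that of the gene at Pearson r = 0.50 (Spearman 0.49, n = 1634 pairs over 1183 genes). It was 0.47 (Spearman 0.32) for 242 pairs within 5 kb and 0.05 (Spearman 0.18) for 164 farther pairs. For metformin against HFD the Pearson values were 0.50, 0.46 and -0.01, and for resveratrol 0.57, 0.53 and 0.06. All pairs share the same libraries, and both drug comparisons share the HFD libraries, so these are descriptions. Strand was known for 424 members from RefSeq. Pairs overlapping on opposite strands had r = 0.15 (n = 138) and those on the same strand r = 0.89 (Spearman 0.48, n = 14).

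**Figure D3:**
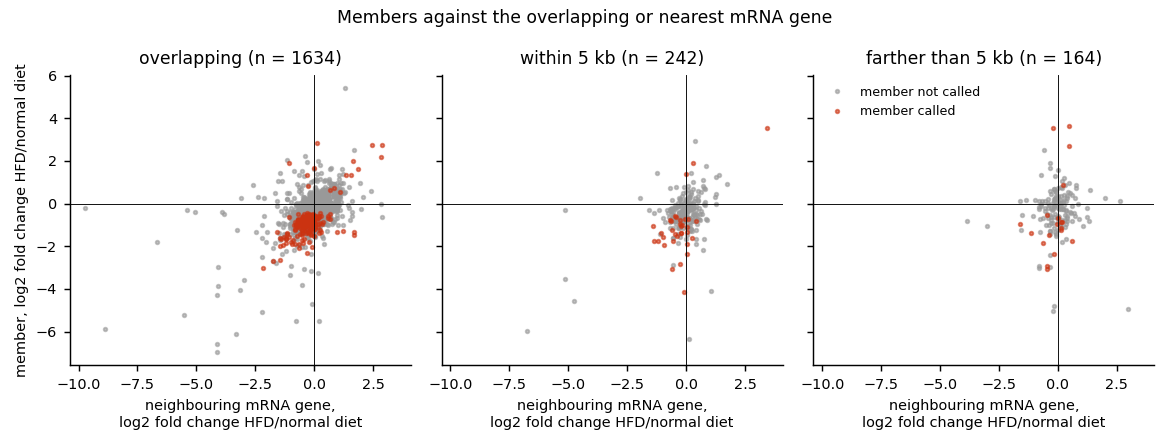
Log2 fold change of HFD over normal diet of each tested member (y axis) against that of its overlapping or nearest mRNA gene (x axis), 1 point per pair, with members that passed the test marked. Pearson r is 0.50 over 1634 overlapping pairs, 0.47 over 242 pairs within 5 kb and 0.05 over 164 farther pairs.

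Of the 18 tested genes beside the members that rose under HFD, 8 rose and 0 fell, and of 200 beside those that fell, 41 fell and 2 rose. Over all mRNA genes, 5.31% rose and 3.52% fell. Members with opposite-strand starts within 1 kb of an mRNA start numbered 141, 140 of them tested, of which 2 rose and 13 fell (0.953% and 12.2% of all lncRNA features did), with a median of -0.54. By lncRNA scaling 3 rose and 2 fell, with a median of -0.10. Fold changes of these members correlated at r = 0.34 (n = 136) with those of the overlapping or nearest mRNA gene. That gene need not be the one whose start lies within 1 kb. The 234 tested members farther than 5 kb from any mRNA gene had a median of -0.21 under HFD, against -0.46 for overlapping ones. Pseudogenes had a median of -0.16 (105 tested), lncRNAs of RefSeq -0.43 (497 tested) and names without a RefSeq match -0.47 (1583 tested). By lncRNA scaling these 3 medians were 0.28, 0.02 and -0.03.

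With metformin against HFD, 2 members rose and 0 fell relative to mRNA (edgeR). Shares of all features were 0.0659% up and 0.0132% down. At an unadjusted p under 0.05 there were 417 members up (18.8%, against 18.1% of all features) and 58 down (2.61%, against 2.43%). DESeq2 called 100 up (4.58%, against 4.59%) and 16 down (0.733%, against 0.761%). By lncRNA scaling edgeR called 0 in either direction (0.00439% and 0.00878% of all features up and down), with 173 up (7.8%, as of all features) and 181 down (8.16%, against 6.39%) at that unadjusted p. Without resveratrol 4, a library of another group, edgeR called 106 up and 18 down, against 4.4% and 0.753% of all features, and by lncRNA scaling 18 up and 47 down, against 0.539% and 1.57%. Of mRNA genes, 0.185% rose and 0.848% fell with metformin. The median of the members was 0.28 relative to mRNA (all features 0.31) and 0.0001 by lncRNA scaling.

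The pair that rose was Gm48225 in Gphn and Gm37694 in Mir99ahg, a host gene of miR-99a. Gm48225 was at 23.7, 21.3, 20.3 and 19.5 CPM with metformin against 9.32 to 14 CPM under HFD, and rose by 0.82 (SE 0.139, adjusted p = 0.0491). Gm37694 (chr16:77685277-77687409) was at 7.82, 14.5, 10.9 and 9.24 CPM against 3.49, 4.74, 5.05 and 4.78 CPM under HFD, and rose by 1.23 (SE 0.208, adjusted p = 0.0491). The groups did not overlap for either, and normal diet means were higher, at 28.1 CPM for Gm48225 and 13.2 CPM for Gm37694. All metformin libraries but metformin 1 were rich in ciliated epithelium transcripts, and no HFD library was. Epididymis sums were 24.5 to 47.8 CPM with metformin and 0.152 to 0.26 CPM under HFD. In metformin 1 Gm37694 had its lowest level of the group and Gm48225 its highest. Gphn differed by 0.29 (adjusted p = 0.288) and Mir99ahg by 0.10 (adjusted p = 0.93). Mir99ahg itself was low, with means of 0.542 CPM under HFD and 0.582 CPM with metformin. By lncRNA scaling Gm48225 and Gm37694 had adjusted p = 0.103 and 0.107, and leaving out single libraries gave 0.015 to 0.182 and 0.0137 to 0.185.

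The next smallest p-values, none past the threshold, were those of Gm16523 in Scai (0.80, adjusted p = 0.0652), Gm48065 (-2.57, adjusted p = 0.0677) and Gm14963 (1.81, adjusted p = 0.0677). Gm14963, whose GC-rich promoter is shown above, lies 119 bases from the endocytosis gene Ehd1. It was at 3.33, 3.64, 2.24 and 2.86 CPM on normal diet, 0.505, 1.02, 0.469 and 1.29 CPM under HFD, 1.59, 4.22, 2.65 and 3.01 CPM with metformin and 2.91, 2.71, 2.24 and 2.33 CPM with resveratrol. HFD libraries were the lowest 4, and Gm14963 fell under HFD by 1.88 (adjusted p = 0.00553) and rose with resveratrol by 1.63 (adjusted p = 0.0389). Ehd1 differed by -0.03 with metformin (adjusted p = 0.963).

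With resveratrol against HFD, 41 members rose (1.85%, against 1.6% of all features) and 5 fell (0.225%, against 0.268%). By lncRNA scaling edgeR called 0 up (0.022% of all features) and 3 down (0.119% of all features). Relative to mRNA, 547 were up (24.7%, against 23.5% of all features) at an unadjusted p under 0.05. The number down was 60 (2.71%, against 2.63%). At the same unadjusted p, lncRNA scaling gave 247 up (11.1%, against 9.91%) and 180 down (8.11%, against 7.14%). The members' median was 0.34 relative to mRNA and 0.03 by lncRNA scaling. DESeq2 called 218 up (9.99%, against 8.55% of all features) and 36 down (1.65%, against 1.25%). Without resveratrol 4, edgeR called 52 up and 4 down, against 1.95% and 0.283% of all features, and by lncRNA scaling 6 up and 5 down, against 0.104% and 0.297%. Fitting only the HFD and resveratrol libraries called 0 in either direction. Of mRNA genes, 0.502% rose and 1.78% fell. Libraries of the 2 groups did not overlap for 14.8% of members with resveratrol (13.1% of all features) and for 15.3% with metformin (14.2%).

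In 3 of the named increases resveratrol 4, the library rich in epididymis transcripts, stood far above the rest of its group. A830008E24Rik was at 2.61, 1.32, 2.68 and 38.7 CPM and B130011K05Rik (chr11:63413169-63417888) at 1.33, 1.6, 1.15 and 6.91 CPM, against 0.469 to 0.858 and 0.156 to 0.561 CPM under HFD. 2010007H06Rik (chr9:51278513-51284210), which overlaps the end of Colca2 by 1%, was at 12.8, 11.3, 9.4 and 44.6 CPM against 3.54 to 7.36 CPM under HFD. The log2 fold changes of A830008E24Rik, B130011K05Rik and 2010007H06Rik of 4.23, 2.79 and 1.94 (adjusted p = 0.0393, 0.0414 and 0.0393) became 1.87, 1.77 and 1.13 without that library (adjusted p = 0.0273, 0.0586 and 0.0306). By smaller margins resveratrol 4 was also the highest of its group for Gm43410, Gm45378 and 5830487J09Rik, and it was the lowest for Gm28529.

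In other increases all 4 resveratrol libraries lay above HFD without 1 far from the rest. Gm45378 (chr7:111090106-111092816), inside the gene model 1700012D14Rik, was at 2.55, 2.36, 4.22 and 5.06 CPM against 0.758, 0.765, 0.885 and 1.53 CPM under HFD and rose by 1.85 (SE 0.304, adjusted p = 0.0278). 2310015A10Rik (chr12:80120546-80132802), 7532 bases from Zfp36l1, a gene for a protein that destabilises AU-rich mRNAs, was at 1.7, 1.74, 2.3 and 2.12 CPM against 0.404, 0.306, 0.521 and 0.981 CPM. It rose by 1.83 (SE 0.335, adjusted p = 0.0339), while Zfp36l1 differed by 0.15 (adjusted p = 0.852). On normal diet it averaged 2.88 ± 0.458 CPM, and under HFD it fell by 2.38 (adjusted p = 0.00224), or by 1.95 with lncRNA scaling (adjusted p = 0.0111).

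Several rose beside their host. Gm43410 in Dpyd was at 2.18, 2.78, 2.24 and 5.41 CPM and rose by 2.51 (adjusted p = 0.0384), with Dpyd up by 1.07 (adjusted p = 0.0298). Dpyd was at 68.5, 90.2, 85.4 and 155 CPM, highest in resveratrol 4, against 41.6 to 59.8 CPM under HFD. 5830487J09Rik (chr5:123366472-123368919), inside Bcl7a, a subunit gene of SWI/SNF chromatin remodellers, was at 1.64, 3.54, 2.56 and 4.72 CPM against 1.01, 1.17, 0.364 and 1.1 CPM. It rose by 1.76 (adjusted p = 0.0435) and Bcl7a by 1.37 (adjusted p = 0.0372), but without resveratrol 4 the lncRNA had adjusted p = 0.0621. Bcl7a was at 20.5, 29.1, 24.2 and 40.2 CPM, again highest in resveratrol 4, against 9.63 to 14 CPM under HFD. Whether Dpyd and Bcl7a pass without that library was not tested. Gm28529 (chr18:6490143-6496962), inside Epc1, a subunit gene of the NuA4 acetyltransferase complex, was at 1.58, 2.02, 1.85 and 0.411 CPM against 0.0521 to 0.354 CPM and rose by 2.57 (adjusted p = 0.0441), and Epc1 by 0.44 (adjusted p = 0.0289). By lncRNA scaling none of the 8 named increases passed, with adjusted p from 0.0563 for Gm45378 to 0.0938 for 5830487J09Rik.

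Of the 5 that fell with resveratrol, 3 had groups that did not overlap and are named by rule. Gm48065 (chr10:44597889-44602174), whose nearest tested gene is Prdm1 at 69387 bases, was at 2.63, 5.35, 4.74 and 1.47 CPM under HFD, 0.364, 0.348, 0.511 and 0.479 CPM with resveratrol and 0.554, 0.534, 0.407 and 0.875 CPM with metformin. All 8 drug libraries lay below all 4 HFD libraries. It fell with resveratrol by 3.04 (SE 0.483, adjusted p = 0.0273), or by 3.39 with lncRNA scaling (adjusted p = 0.0332). Prdm1, which encodes the repressor Blimp-1, fell with resveratrol by 1.5 (adjusted p = 0.0289) and with metformin by 1.25 (adjusted p = 0.0494). Under HFD Gm48065 rose by 1.95 (adjusted p = 0.0136) and Prdm1 by 1.61 (adjusted p = 0.00691).

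Gm17749 (chr9:65521106-65529806), 912 bases from the ankyrin repeat gene Ankdd1a, was at 5.3, 6.98, 6.09 and 0.981 CPM under HFD and at 0 to 0.364 CPM with resveratrol. It fell by 4.28 (SE 1.03, adjusted p = 0.0499), while Ankdd1a, at 14.2, 15.3, 11.7 and 1.9 CPM under HFD and 0 to 1.94 CPM with resveratrol, differed by -3.51 (adjusted p = 0.0679). Gm37010 (chr1:171688311-171690014), inside Cd48, a leukocyte surface protein gene, was at 2.63, 3.21, 2.92 and 1.23 CPM and at 1.15, 0.695, 1.09 and 0.342 CPM, and fell by 1.60 (adjusted p = 0.0499), with Cd48 at -1.73 (adjusted p = 0.0538). Without resveratrol 4 the adjusted p was 0.0657 for Gm17749 and 0.0589 for Gm37010, and by lncRNA scaling it was 0.0746 and 0.06. In Gm48065, Gm17749 and Gm37010 HFD unmatched was the lowest HFD library, as for the macrophage sums given above. The part of macrophage content in these differences was not tested. The other two that fell were Gm38248, inside Zranb3, and Gm42047.

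**Figure D4:**
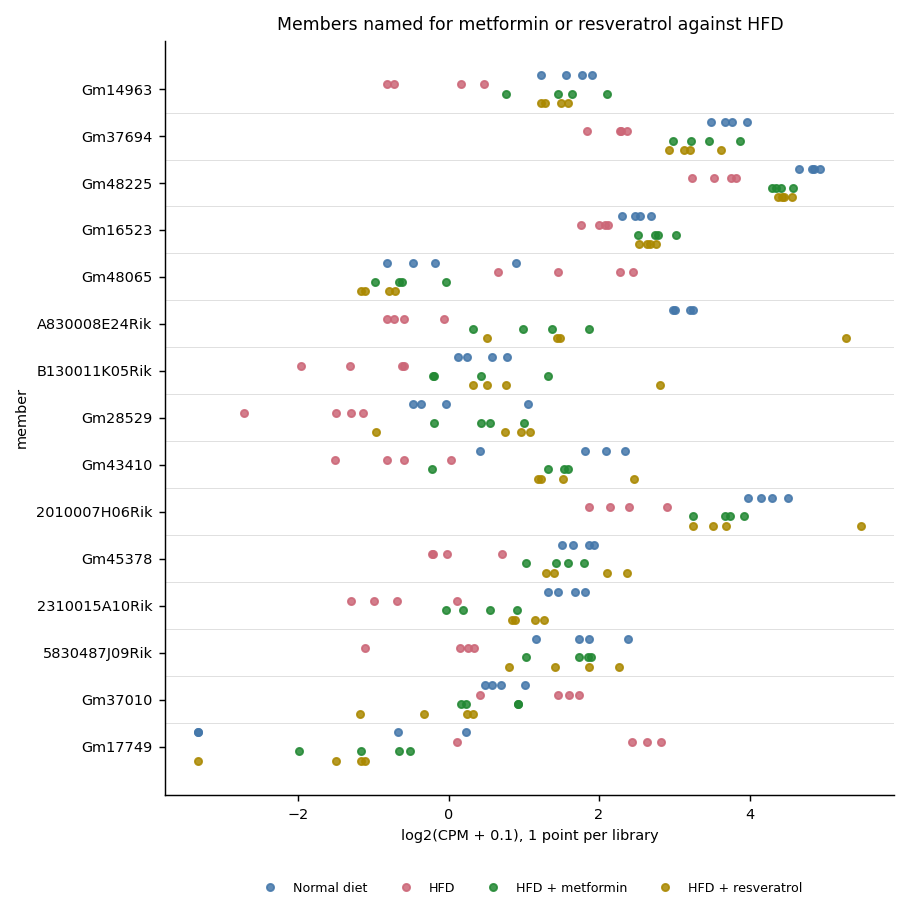
Level of the 15 members named for metformin or resveratrol against HFD, as log2(CPM + 0.1), with 1 point per library coloured by group. Resveratrol 4 is the highest point of A830008E24Rik (38.7 CPM), B130011K05Rik (6.91 CPM) and 2010007H06Rik (44.6 CPM).

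**Figure D5:**
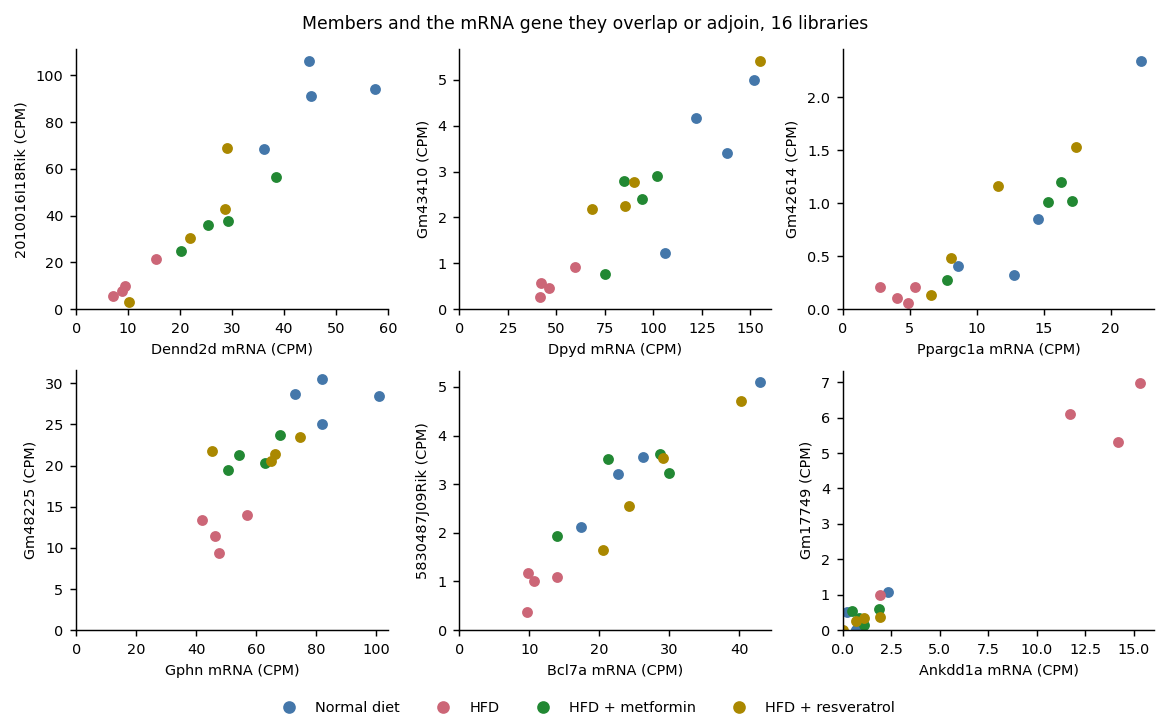
Level of 6 members (y axis, CPM) against that of the mRNA gene they overlap or adjoin (x axis, CPM), 1 point per library coloured by group. The HFD libraries sit towards the low end for Dennd2d, Dpyd, Ppargc1a, Gphn and Bcl7a, and 3 of them sit far from all other libraries at the high end for Ankdd1a.

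In the plot of pairs by library, the 5 lowest libraries of 2010016I18Rik and of Dennd2d were in both cases the HFD libraries and resveratrol 4. For Gm17749 and Ankdd1a HFD 1 to 3 stood far above every other library.

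Gm15441, which overlaps Txnip, and Gm11747, which overlaps C1qtnf1, were given as examples in the rule for this work. Txnip encodes the thioredoxin-interacting protein, an inhibitor of glucose uptake, and covers 35.6% of Gm15441 (chr3:96555765-96566801). Gm15441 was at 4.1, 9.94, 7.57 and 5.78 CPM on normal diet, 4.65, 5.25, 2.19 and 4.35 CPM under HFD, 5.95, 3.38, 4.84 and 3.44 CPM with metformin and 4.97, 3.89, 6.46 and 3.83 CPM with resveratrol. The groups overlapped, and the difference of HFD from normal diet was -0.74 (SE 0.313, adjusted p = 0.125). Txnip was at 3190 to 3920 CPM on normal diet and 1870 to 2470 CPM under HFD, without overlap, a difference of -0.83 that did not pass (adjusted p = 0.223). In resveratrol 4, which enters the shared estimate of spread, Txnip was at 459 CPM, against 2360 to 3120 CPM in the other resveratrol libraries. Whether Txnip passes without that library was not tested. Against HFD, Gm15441 differed by 0.10 with metformin (adjusted p = 0.9) and 0.22 with resveratrol (adjusted p = 0.711).

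Gm11747 (chr11:118444200-118454995, minus strand) missed the threshold with a mean of 0.423 CPM and is not a member. C1qtnf1, which encodes the secreted protein CTRP1, covers 53.4% of it. Gm11747 had 18, 32, 25 and 11 counts in the HFD libraries (0.909, 1.63, 1.3 and 0.674 CPM) and 13, 15, 0 and 0 counts with resveratrol. All 8 normal diet and metformin libraries had 0 counts, which allows up to 0.232 CPM and 0.208 CPM respectively, taking 3 counts per library as the limit and covering counting error only. Taking the HFD mean as measured, it was therefore at least 4.87-fold higher than normal diet and at least 5.44-fold higher than metformin. The lowest HFD library was 2.91-fold above the highest limit of the normal diet libraries. Gm11747 passed for HFD against normal diet (adjusted p = 0.0333), but not by lncRNA scaling (adjusted p = 0.0632) and not for metformin (adjusted p = 0.111). C1qtnf1 was at 85.2 to 123 CPM on normal diet and 161 to 184 CPM under HFD, without overlap, a difference of 0.72 that did not pass (adjusted p = 0.36). In resveratrol 4, which enters the shared estimate of spread, it was at 12.7 CPM, against 133 to 141 CPM in the other resveratrol libraries. Whether C1qtnf1 passes without that library was not tested.

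Of 65 lncRNAs with established names listed for comparison, 41 were tested, and 1 rose and 7 fell under HFD, with a median of -0.58. By lncRNA scaling 1 rose and 0 fell, with a median of -0.14. With metformin 0 rose and 0 fell, and with resveratrol 0 rose and 1 fell.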

How the data were processed

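Members, gene lists, promoter motifs and tests were chosen with earlier results of these data known. The authors deposited whole-number counts per mRNA and lncRNA transcript, with FPKM values beside them, per the file headers. Reads were handled with fastp and HISAT2 on GRCm38, per the submitters' processing notes, from TruSeq RNA libraries, per the labels' protocols, with counting tool, annotation release and strand setting not given in the sources used here. The authors' FPKM values served only to check headers: in 14 libraries the implied total differed from the summed counts by at most 0.0418%, against 0.492% or more with another library's mRNA column. A further 4 columns of unmatched codes were not used. Of the mRNA table, 5 records broken over lines were rejoined. Counts were summed to 27150 mRNA genes and 76125 lncRNA features.

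CPM and tests used library sizes and TMM factors of the mRNA table. The test was edgeR 4.0.16 (R 4.3.3, limma 3.58.1), robust quasi-likelihood, 2-sided, group as the factor, all 16 libraries in one fit, filterByExpr, Benjamini-Hochberg over all features, threshold 0.05. Log2 fold changes are first group minus reference, and mean ± SD is of CPM with n = 4. Of 2265 members 2218 were tested and 47 were too low. For 95 members the same name is also in the mRNA table, and their values here cover the lncRNA table only. Among them are 1810026B05Rik, 2310015A10Rik, 9030619P08Rik, Gm1821 and Gm10177. The code was tested on simulated data. No 2 libraries of 1 group agreed within sampling noise (chi-square per degree of freedom 4.29 to 62.2 over 24 pairs). Neighbours are genes of the mRNA table, overlapping or nearest by distance between ends, and values given are for the nearest one tested that has no provisional name, unless said otherwise. Genes named were, per comparison, the up to 8 largest increases and 8 largest decreases past the threshold with non-overlapping groups, the 5 smallest p-values where fewer than 3 qualified, the 10 highest per kb, and Gm11747 and Gm15441, unless said otherwise. Alternatives, run for the lncRNA features only, were other scalings, DESeq2 1.42.0, filters, thresholds, fits without libraries, and a covariate. DESeq2 shares are over the 2183 members and 22480 features with an adjusted p. Promoter sequences are from RefSeq GRCm38.p6, no genome was used, and names matched by symbol (644) or synonym (24). A named decrease under HFD and an observation are not reported here.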

Additional observations from a re-analysis of the deposited data

Results flagged for a closer look

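Among 48 named lncRNAs in 4 groups of 4 libraries, 12 values stood farther from the other 3 libraries of their group than Dixon's 95% limit allows, and chance flags about 1 in 20 groups. In resveratrol 4 these were 1810026B05Rik (83.2 CPM, others 55.7 to 59.6), 2010007H06Rik (44.6 CPM, others 9.4 to 12.8), 2900097C17Rik (482 CPM, others 320 to 334), A830008E24Rik (38.7 CPM, others 1.32 to 2.68), B130011K05Rik (6.91 CPM, others 1.15 to 1.6), Gm10177 (32.2 CPM, others 15.2 to 16.7) and Gm14586 (132 CPM, others 56.7 to 59.1). That library also had 21500 CPM of epididymis principal cell transcripts. In normal diet 2 they were 3110039I08Rik (74.8 CPM, others 44.2 to 48.7) and Gm24447 (241 CPM, others 174 to 183). The remaining 3 were 1700047G03Rik in normal diet 4 (2.57 CPM, others 1.86 to 1.93), Gm26917 in HFD 2 (33900 CPM, others 28600 to 28800) and Gm45378 in HFD unmatched (1.53 CPM, others 0.758 to 0.885).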

How the results depend on the processing

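No named difference changed sign in 763 refits (32 results, 24 settings), of which 463 kept their side of the threshold, 285 lost it and 15 gained it. Counts of members up and down follow for HFD against normal diet, then metformin and then resveratrol against HFD (main 27 and 270, 2 and 0, 41 and 5). With library sizes and TMM of the lncRNA table they were 46 and 31, 0 and 0, 0 and 3, and without resveratrol 4 as well (chosen after seeing the data) 162 and 95, 18 and 47, 6 and 5. DESeq2 gave 48 and 376, 100 and 16, 218 and 36. Without a filter on low counts they were 9 and 110, 0 and 0, 0 and 0. With only the groups compared they were 76 and 568, 2 and 0, 0 and 0. Without the 6 libraries rich in male tract transcripts they were 51 and 418, 3 and 2, 1 and 0. With a ciliated epithelium covariate and resveratrol 4 left out they were 73 and 538, 16 and 1, 106 and 5. No share over all lncRNA features is given for the filter, group, male tract and covariate settings, or for most single-library fits below. Their counts therefore cannot be read as particular to the members. RLE factors, other CPM minimums, the mean over 16 libraries and CPM relative to the lncRNA total kept every count within 1.5 times. Leaving out each library in turn gave 6 (without HFD 3) to 67 (without resveratrol 4) up and 110 (without HFD 3) to 526 (without resveratrol 4) down for HFD, 0 to 106 up and 0 to 18 down for metformin (highest without resveratrol 4), and 0 to 95 up (highest without resveratrol 1) and 0 to 19 down (highest without HFD unmatched) for resveratrol. Of the 32 named results, leaving out 1 library ended 4 (without resveratrol 3 or resveratrol 4) to 21 (without HFD 3). The cause was not tested. No paired analysis was possible because the replicate numbers only follow accession order. Members with a mean under 1 CPM number 601, and their few counts limit precision.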

Other observations

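Some members were high in the libraries rich in ciliated epithelium or epididymis transcripts. Of 2218 members, 94 (4.24%) were higher in all 5 libraries rich in ciliated epithelium transcripts than in the other 10, against 4.5% of all 22774 lncRNA features. 5330413P13Rik was at 2.52 to 4.79 CPM in those 5 and listed at 0 in the other 10, and Gm34059 at 2.04 to 6.77 CPM against at most 0.0692 CPM. Gm26578, which overlaps Nrg1, a gene for a neuregulin growth factor, was at 0.916 to 2.99 CPM against at most 0.0533 CPM. In resveratrol 4 alone, 5 members (0.225%, against 0.29% of all features) reached 10 times the highest other library or more. Gm13652 was at 92.6 CPM against at most 1.84 CPM, Gm37199 at 70.1 CPM against at most 2.29 CPM, and Gm43890, which overlaps the folate enzyme gene Mthfd2, at 34.3 CPM against at most 1.92 CPM. Gm43314, which overlaps Cth, an enzyme gene of cysteine synthesis, was at 17.8 CPM against at most 1.22 CPM, and Gm20427, which overlaps the zinc transporter gene Slc39a7, at 27.3 CPM against at most 2.51 CPM. These were chosen after their values were seen and are descriptions with no test.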
